A study of Mus musculus with 2 samples.

Results

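Ly6a and Kit, the genes of the surface proteins Sca-1 and c-Kit, were followed across single blood stem and progenitor cells of mouse bone marrow. They were matched by symbol in the gene tables of both libraries and are 2 of the 31053 genes counted, in 7188 control cells and 5112 irradiated cells. The cells were LSK cells, sorted by flow cytometry as lineage-negative and positive for these same 2 proteins, from C57BL/6J mice aged 6 to 8 weeks. The control library came from untreated mice, and the irradiated library from mice taken on day 15 after 5.0 Gy of total body irradiation. Each group was 1 library made with the 10x Genomics 3' method, and the number of animals pooled in each was not given in the sources used here. The comparison therefore asks how the RNA of the 2 gate genes stood in cells that had all passed the protein gate, and it has no replicate check.

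Sca-1 is a small protein of the Ly6 family, held on the outer membrane by a lipid (GPI) anchor, and is used with c-Kit to enrich mouse blood stem cells. Its gene is known to respond to interferons, the cytokines of antiviral defence, so that cells without surface Sca-1 can gain it in inflammation. c-Kit is the receptor tyrosine kinase for stem cell factor, and its signalling supports the survival and division of stem and progenitor cells.

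In GENCODE M21 (GRCm38, the build the labels name as mm10), Ly6a (ENSMUSG00000075602) lies at chr15:74994877-74998031 on the minus strand, within the cluster of Ly6 genes, with 6 annotated transcripts of up to 4 exons. Kit (ENSMUSG00000005672) lies at chr5:75574916-75656722 on the plus strand, with 8 transcripts, of which 2 are coding, and up to 21 exons. A 3' library reads the transcript end, and Ly6 genes resemble each other. The last 500 bases of each coding transcript of Ly6a and Kit were therefore compared with the full transcripts of all other genes. For Ly6a, 8.13% of 50-base windows also occurred in Ly6c1, Ly6c2, Ly6i or I830127L07Rik, and 0 of 732 windows of 90 bases did. Kit shared none of its 451 windows of 50 bases with another gene. A short read within such a shared window could therefore not be assigned to a single gene by its sequence. What this does to the Ly6a counts was not tested, and the read length was not given in the sources used here.

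The bases before the start of Kit are shown because they are the promoter of a gate gene, and those of Isg15 because it had the highest ratio among the interferon response genes described further on. Both are RefSeq sequences on GRCm38.p6, Kit at chr5:75574737-75574915 on the plus strand (179 bases, ended where the first GENCODE transcript begins) and Isg15 at chr4:156200819-156201068 on the minus strand (250 bases). Capitals mark a GC box (GGGCGG) in Kit and 3 overlapping matches to the interferon-stimulated response element (ISRE, searched as a pair of GAAA copies set 2 bases apart) in Isg15, each searched on both strands.
Kit: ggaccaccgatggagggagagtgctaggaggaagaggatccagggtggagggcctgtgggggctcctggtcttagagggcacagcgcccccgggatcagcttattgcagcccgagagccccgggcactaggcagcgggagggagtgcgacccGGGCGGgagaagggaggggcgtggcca
Isg15: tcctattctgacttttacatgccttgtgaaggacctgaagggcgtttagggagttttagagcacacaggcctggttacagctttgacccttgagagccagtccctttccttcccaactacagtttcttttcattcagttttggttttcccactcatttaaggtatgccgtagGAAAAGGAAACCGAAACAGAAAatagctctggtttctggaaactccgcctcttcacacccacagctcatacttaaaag
The full Kit window, 250 bases before the RefSeq start, held no match to the ISRE, none to the gamma-activated site (GAS, searched as TTCNNNGAA) and none to the GATA motif searched as AGATAA. Over 27025 promoter windows of the same length, 3.04% held the ISRE letters, 7.18% the GAS letters, 32.9% the GC box and 10.3% the GATA letters. Of the 21 windows of interferon response genes counted at a mean of 20 or more UMIs per 1000000, 4 held the ISRE letters and 4 the GAS letters. These matches describe letters in a window and were not tested as binding sites.

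The libraries differed in depth and make-up. Kept control cells had a median of 16084 UMIs (unique molecular identifiers, 1 for each captured RNA molecule) and 3702 genes, and irradiated cells 29615 UMIs and 4833 genes, while the median share of mitochondrial UMIs was 4.38% and 3.24%. Levels are therefore given as CPM, the UMIs of a gene per 1000000 UMIs summed over the cells of a group. Shares of cells with a UMI are given after each cell was thinned to 5000 UMIs, which left out 66 control and 59 irradiated cells. Intervals of shares and ratios are exact 95% Clopper-Pearson intervals, and those of CPM are exact 95% Poisson intervals. All cover counting error only, not variation between animals. Those of CPM and ratios treat UMIs as independent, so they also leave out variation between cells. Of the lineage antigens, the T cell genes Cd3e, Cd4, Cd8a, Cd8b1 and Cd5 and the neutrophil gene Ly6g were each found in at most 0.66% of the thinned cells of either library. Itgam, which encodes the myeloid integrin CD11b, was found in 5.29% of control and 2.97% of irradiated thinned cells (10.3 and 6.03 CPM), and the interleukin 7 receptor gene Il7r in 4.42% and 1.74% (14.04 and 4.08 CPM). Ptprc, which encodes CD45 of all leukocytes, was at 138 and 94.9 CPM. There were 16 cell barcodes common to both libraries, 11 of them among kept cells.

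Over all cells, Ly6a RNA was higher and Kit RNA lower in the irradiated library. Ly6a had 155.8 CPM in control cells (21506 UMIs) and 217.6 CPM in irradiated cells (35417 UMIs), a 1.40-fold ratio with a log2 ratio of 0.48 (interval 0.46 to 0.51). It ranked 512 from the top among 5248 genes with a mean of 20 CPM or more. A lesser step, a log2 ratio of at least 0.32, was passed upward by 21.1% of these genes. At 5000 UMIs per cell, 50.4% of control cells (interval 49.2% to 51.6%) and 56.2% of irradiated cells (54.9% to 57.6%) had a Ly6a UMI, and without thinning the shares were 81.6% and 89.1%. The 10 cells with the most Ly6a held 1.09% of its UMIs in control and 1.76% in irradiated cells. The variance between thinned cells was 1.83 times the mean in control and 2.56 times in irradiated cells, over means of 0.95 and 1.28 UMIs. This measure can move with the mean and with the mix of cells, so it does not by itself show a wider spread.

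Kit had 132.1 CPM in control cells (18237 UMIs) and 73.5 CPM in irradiated cells (11965 UMIs), a log2 ratio of -0.85 (interval -0.88 to -0.81). That placed Kit at rank 5062 of the 5248 genes, of which 20.4% lay at least 0.32 lower on the log2 scale. A Kit UMI was present in 48.0% of thinned control cells (46.9% to 49.2%) and 32.2% of thinned irradiated cells (30.9% to 33.5%). Without thinning the shares were 82.8% and 80.5%, nearer to each other, with the irradiated cells read more deeply. Neither gene passed a 2-fold difference over all cells, a size reached by 1.11% of genes upward and 2.38% downward.

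The background of free RNA was not measured. No class here is known to lack either gene, since all cells were sorted as positive for both proteins. The shares are set beside those of the class with the lowest CPM of each gene in control. In erythroid-primed-like control cells (median 16223 UMIs) 6.98% had a Ly6a UMI after thinning (interval 1.46% to 19.1%) and 24.5% before. In B lineage-like control cells (median 22219 UMIs) 12.9% had a Kit UMI after thinning (7.04% to 21.0%), and 55 of 110 cells before. In the control library the shares over all thinned cells lay above both intervals. In the irradiated library 31.2% of thinned erythroid-primed-like cells (27.0% to 35.6%, median 23565 UMIs) had a Ly6a UMI, below the share of 56.2% over all cells. For Kit, 17.4% of the 23 thinned B lineage-like irradiated cells had a UMI, and the interval (4.95% to 38.8%) held the 32.2% over all irradiated cells, so that share could not be told from this class.

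Cells were grouped into 13 clusters made without Ly6a, Kit, the interferon lists or MHC class I among the clustering genes. A cluster was named only by markers, and the others keep a number. The first gene by fold was Nusap1 in cluster 1, Gm32554 in cluster 2, Otos in cluster 4, Gm19331 in cluster 8 and Mrgpra2b in cluster 9. The 25 leading genes also held the mitotic gene Kif11 in cluster 1 and the chemokine genes Cxcl2 and Ccl3 in cluster 2. They held Clec10a and Selp in cluster 4, Ccr9 and Gria2 in cluster 8, and Ctsg, Mpo and Cebpa in cluster 9. The mix of these groups was not the same in the libraries. HSC-like cells (with markers of haematopoietic stem cells) were 18.5% of control and 4.21% of irradiated cells, cluster 2 was 19.8% and 2.64%, and neutrophil-primed-like cells were 1.61% and 21.2%. HSC-like, cluster 2 and cluster 8 cells, each a smaller share of the irradiated library, had 240 to 266 CPM of Ly6a in control. Cluster 9 and the neutrophil-, megakaryocyte- and erythroid-primed-like cells, each a larger share, had 23.04 to 69.7 CPM. Not all groups followed this pattern. Dendritic-like cells, 0.36% of control and 1.49% of irradiated cells, had 278 CPM in control. Lymphoid-primed-like cells, 13.5% and 7.82%, had 151 CPM, and cluster 1, 17.3% and 19.9%, had 90.5 CPM.

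Holding the mix at that of the control library changed the size of the Ly6a difference. With irradiated levels in each group and control shares of UMIs, Ly6a came to 368.6 CPM, a log2 ratio of 1.24 over control. With control levels and the irradiated mix it came to 81.2 CPM, a log2 ratio of -0.94 from the mix alone. For Kit the log2 ratio was -0.58 at the control mix, and the mix alone gave -0.33. The mix and the levels thus moved Ly6a in opposite directions and Kit in the same direction.

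Within groups, Ly6a was higher in irradiated cells in all 8 groups with at least 100 cells in each library, at least 2-fold in 7 of them. In HSC-like cells it went from 266 to 586 CPM, a log2 ratio of 1.14 (1.06 to 1.22), where 0.903% of genes were at least 2-fold higher. In cluster 2 it went from 240 to 478 CPM, log2 1.00 (0.90 to 1.09), just short of 2-fold, a size reached by 0.791% of genes. Both groups had a high level of Ly6a in control cells. Lymphoid-primed-like cells went from 151 to 389 CPM, log2 1.37 (1.30 to 1.43), where 0.548% of genes reached 2-fold. Cluster 4 went from 139 to 381 CPM, log2 1.45 (1.38 to 1.53), against 0.445% of genes. Cluster 1, the mitotic group, went from 90.5 to 220.6 CPM, log2 1.28 (1.23 to 1.34), against 0.423% of genes. These 3 groups had intermediate levels in control cells and ratios above that of the HSC-like cells.

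Among the 8 groups the widest ratio was in a group low in Ly6a in control cells. Neutrophil-primed-like cells went from 34.6 CPM (163 UMIs in 116 cells) to 144 CPM, log2 2.06 (1.84 to 2.29), and Ly6a had the highest ratio of the 4856 genes listed there, of which 0.247% reached 2-fold. Their control base could not be told from that of the class lowest in Ly6a: 11.4% of thinned control cells (6.21% to 18.7%) had a Ly6a UMI. Both this interval and that of the CPM (29.5 to 40.3) overlapped those of erythroid-primed-like control cells (14.6 to 34.6 CPM). With each cell named by its own markers in place of its cluster, neutrophil-primed cells were 1255 and 2543 and the log2 ratio was 1.07 (1.01 to 1.12), level with 1.07 in lymphoid-primed cells named that way. Without the 10 cells with the most Ly6a in each library it was 2.75, where a larger part of the 116 control than of the 1083 irradiated cells was left out. Cluster 9 went from 69.7 to 177 CPM, log2 1.34 (1.15 to 1.54), against 0.534% of genes. Megakaryocyte-primed-like cells went from 69.0 to 142 CPM, log2 1.04 (0.89 to 1.20), against 0.493% of genes. The median over the 8 groups was 1.31. In the neutrophil-primed-like cells Ly6c2, a neighbour that shares sequence with Ly6a, was at 729 and 612 CPM, lower after irradiation. It was also lower in cluster 9 and was higher in the rest of the 8 groups. What Ly6c2 gave to the Ly6a counts was not tested.

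**Figure D1:**
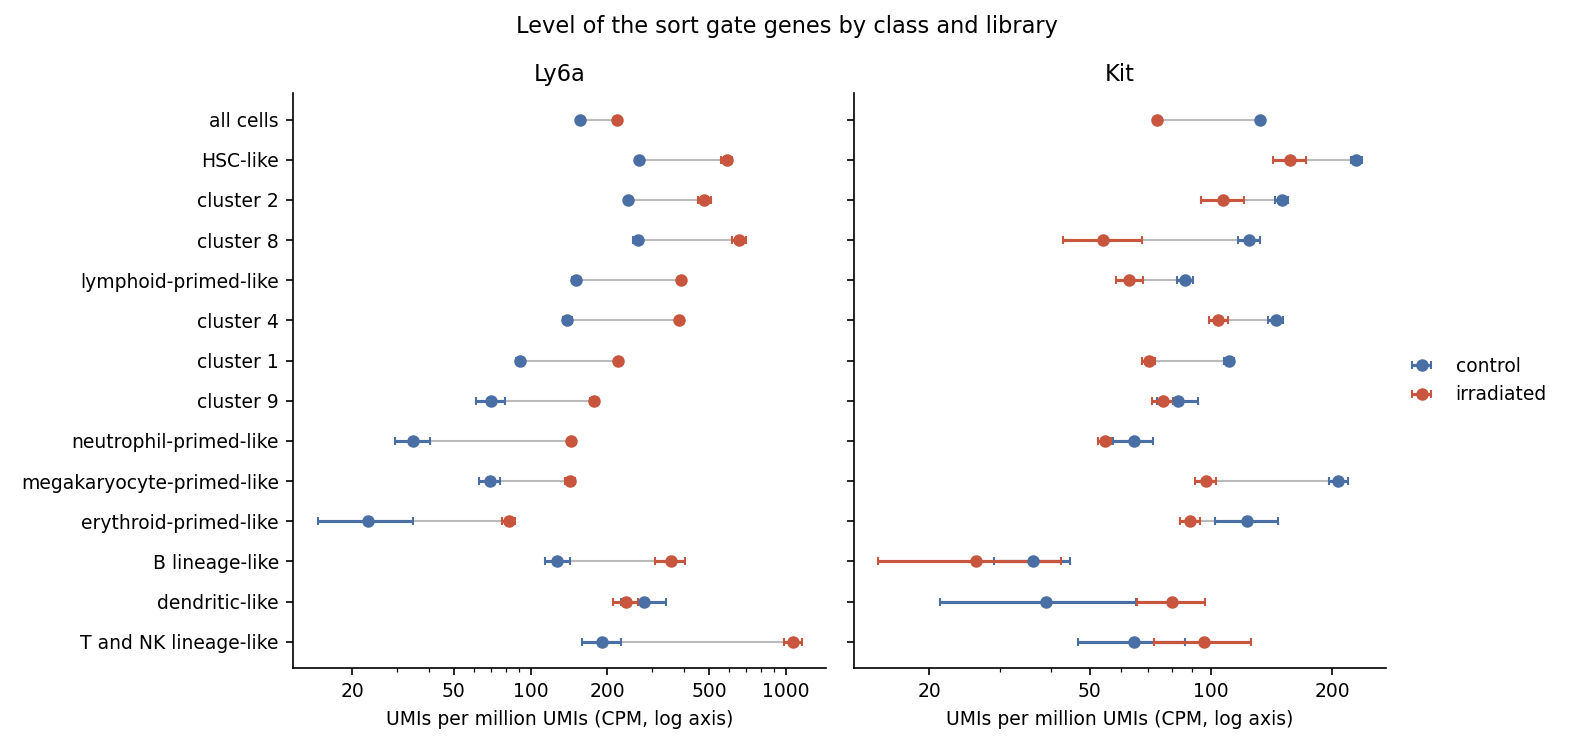
Level of Ly6a (left) and Kit (right) in CPM, on a log axis, over all cells and in each group, for the control (blue) and irradiated (red) library, with exact 95% counting intervals. Ly6a lay to the right in irradiated cells in every group but the dendritic-like cells, and Kit lay to the left in all but the dendritic-like and the T and NK lineage-like cells.

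In control cells the highest levels were in dendritic-like (278 CPM, 26 cells), HSC-like (266 CPM) and cluster 8 cells (263 CPM), whose intervals overlapped, followed by cluster 2, whose interval overlapped that of the dendritic-like cells. The lowest were neutrophil-primed-like (34.6 CPM) and erythroid-primed-like cells (23.04 CPM, 49 cells), whose intervals also overlapped. In irradiated cells the T and NK lineage-like cells led with 1067 CPM (41 cells, against 190 CPM in 45 control cells). The log2 ratio was 2.49 (2.21 to 2.77), where 3.95% of genes were at least 2-fold higher. Ly6a was uneven in these irradiated cells: over 35 thinned cells the median was 3 UMIs, the highest 32 and the variance 8.72 times the mean. The interval does not cover that spread. Cluster 8 at 656 CPM and HSC-like cells at 586 CPM followed, with intervals that overlapped. Neutrophil-primed-like (144 CPM) and megakaryocyte-primed-like cells (142 CPM) did not differ beyond their intervals, and erythroid-primed-like cells were last at 81.9 CPM. Dendritic-like cells had 236 CPM after irradiation, with a log2 ratio of -0.24 whose interval (-0.57 to 0.10) held 0. The 5 groups with fewer than 100 cells in a library (cluster 8, erythroid-primed-like, B lineage-like, dendritic-like, and T and NK lineage-like) are given mainly as levels. Their ratios are not counted among the 8 groups.

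Kit was lower in irradiated cells in 7 of the 8 groups, and in cluster 9 the interval held 0. Megakaryocyte-primed-like cells had the widest ratio, from 207 to 97.0 CPM, log2 -1.09 (-1.21 to -0.98), and there 0.858% of genes were at least 2-fold lower and 14.7% passed -0.32 on the log2 scale. That lesser step was passed by Kit in 6 of the 8 groups. HSC-like cells, in which Kit was highest in both libraries, went from 230 to 157 CPM, log2 -0.55 (-0.69 to -0.40), where 9.26% of genes passed the step. Cluster 1 went from 111 to 70.2 CPM, log2 -0.66 (-0.73 to -0.59), where 14.7% did. Cluster 2, cluster 4 and lymphoid-primed-like cells had log2 ratios of -0.48, -0.47 and -0.46, against 13.5%, 9.91% and 9.18% of genes past the step. The ratio was smallest in neutrophil-primed-like cells, from 64.3 to 54.5 CPM, log2 -0.24 (-0.41 to -0.06), and in cluster 9, from 82.7 to 75.9 CPM, log2 -0.12 (-0.31 to 0.07), where 6.8% and 5.69% of genes passed it. The neutrophil-primed value depended on how the cells were taken: it was -0.71 (-0.77 to -0.66) with cells named by their own markers, and -0.02 (-0.21 to 0.19) without the 10 cells with the most Kit in each library, which left out a larger part of the control cells. The median over the 8 groups was -0.48.

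In control cells Kit was highest in HSC-like (230 CPM) and megakaryocyte-primed-like cells (207 CPM), then cluster 2 (150 CPM) and cluster 4 (145 CPM), whose intervals overlapped. In irradiated cells HSC-like cells stayed first at 157 CPM, and cluster 2 (107 CPM), cluster 4 (104 CPM) and megakaryocyte-primed-like cells (97.0 CPM) followed with overlapping intervals. In control cells B lineage-like (36.2 CPM) and dendritic-like cells (38.95 CPM) were lowest, with overlapping intervals, and in irradiated cells B lineage-like cells were lowest at 26.1 CPM (14.9 to 42.4). Cluster 8 had 124 CPM in control and 54.1 CPM in its 94 irradiated cells.

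**Figure D2:**
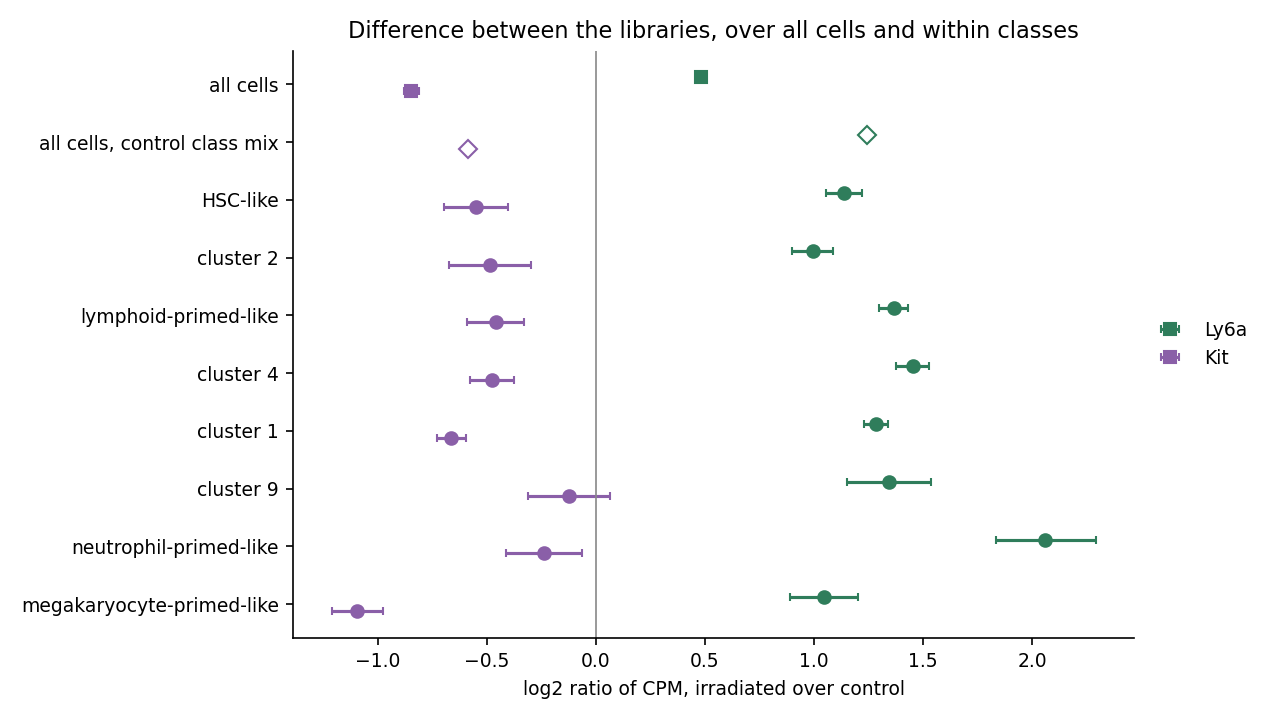
The log2 ratio of CPM, irradiated over control, for Ly6a (green) and Kit (purple) over all cells (squares), at the control class mix (open diamonds, no interval) and in the 8 groups compared (circles), with exact 95% counting intervals. The Ly6a ratio was 0.48 over all cells and 1.24 at the control mix, and every group lay between 1.00 and 2.06, while Kit lay between -1.09 and -0.12.

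Cells with a UMI of both genes were about as frequent as the separate shares would give. Over thinned cells, 25.2% of control and 18.8% of irradiated cells had a UMI of both genes, where the product of the 2 shares was 24.2% and 18.1%. Cells with Ly6a only went from 25.2% to 37.4%, cells with Kit only from 22.9% to 13.3%, and cells with neither from 26.7% to 30.4%. Within groups, Pearson's r between the genes lay between -0.09 and 0.10 across cells of a group and library. In HSC-like cells 43.5% of control and 46.4% of irradiated cells had both, and cells with Kit only went from 22.3% to 5.69%. In neutrophil-primed-like cells 60.5% of control and 42.6% of irradiated cells had neither, although all had passed the gate on both proteins. These shares depend on depth, and a cell without a UMI at 5000 UMIs may still hold the RNA.

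**Figure D3:**
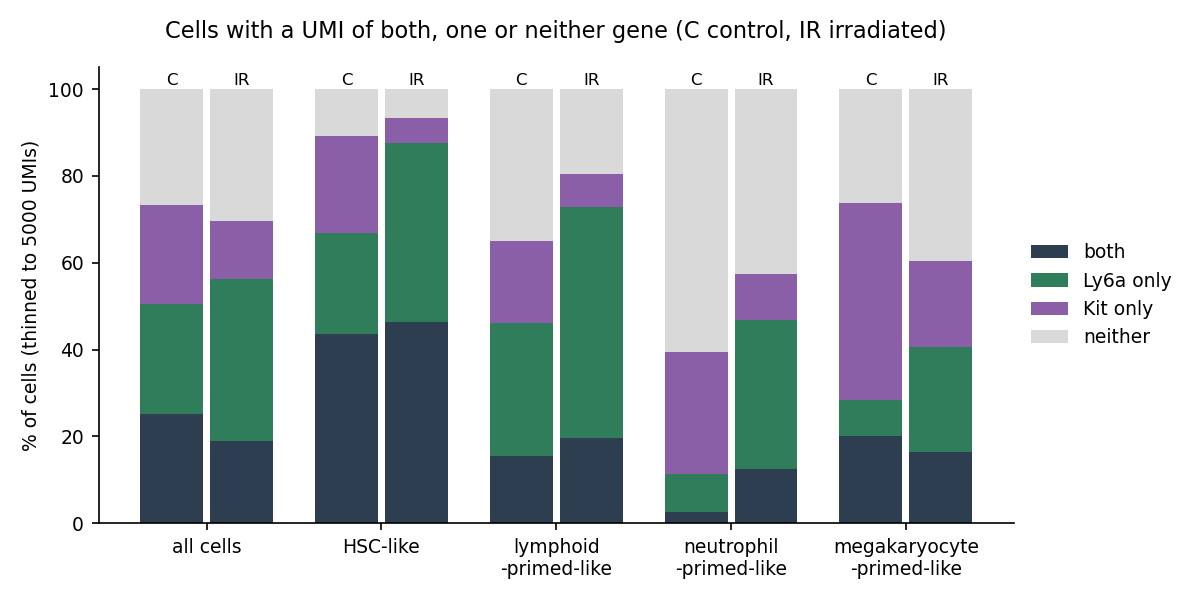
Share of thinned cells with a UMI of both genes, Ly6a only, Kit only or neither, in control (C) and irradiated (IR) cells, over all cells and in the 4 named classes with at least 100 cells in each library. Cells with Kit only were fewer in the irradiated library in each bar pair, from 22.9% to 13.3% over all cells.

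Cell cycle phase, called from S and G2/M genes, differed between the libraries: 48.8% of control and 20.05% of irradiated cells were called G1, and 25.1% and 50.2% were called G2/M. Both genes were highest in G1. In G1 cells Ly6a was at 240 and 383 CPM, at 142 and 230 CPM in S, and at 90.8 and 181 CPM in G2/M. Kit was at 168 and 114 CPM in G1, at 116 and 70.2 CPM in S, and at 113 and 67.7 CPM in G2/M. The directions over all cells were thus also seen within each phase. What part phase has in the group differences was not tested.

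The link to interferon genes was followed in each cell as the sum of 49 interferon response genes (Ly6e, a neighbour of Ly6a, among them), in cells thinned to 5000 UMIs, within each group and library that had at least 100 cells. Ly6a was positively correlated with this sum in all 19 strata, with Pearson's r from 0.09 to 0.38 and a median of 0.23 across cells. These are descriptions across cells that share a library, and no p is given. Ly6a had the highest r of all 5220 genes outside the list over all control cells (r = 0.37) and over all irradiated cells (r = 0.34). Over all cells the classes are mixed. Low counts also weaken r, so the rank favours genes with many UMIs. Ly6a had a higher CPM than 97.5% of all genes in control and 98.1% in irradiated cells, and what part its level has in the rank was not tested. Within strata the median rank of Ly6a was 4, and the worst was 1214, in B lineage-like control cells. Kit had r from -0.21 to 0.16 with a median of 0.02, positive in 11 of 19 strata.

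**Figure D4:**
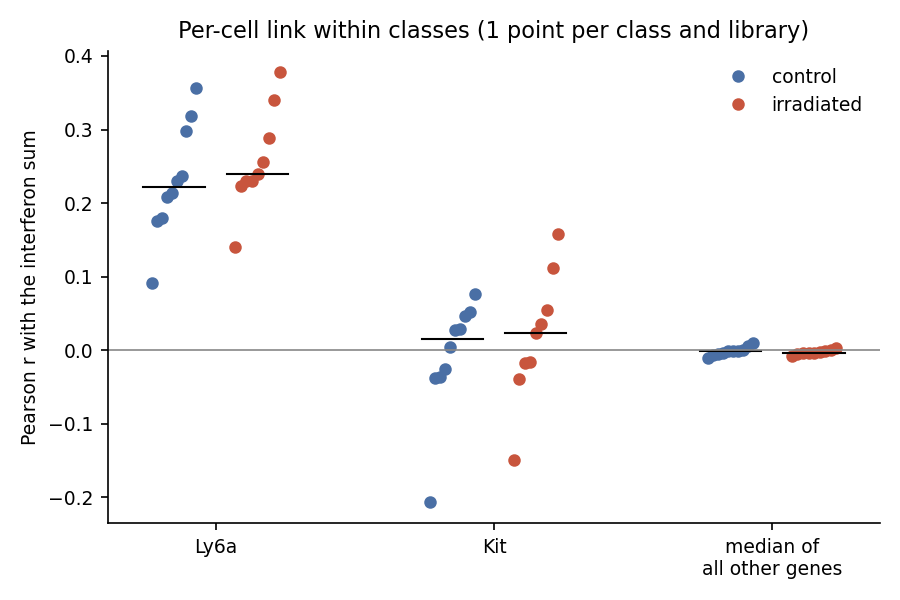
Pearson's r across cells between the interferon sum and Ly6a, Kit or the median of all other genes, with 1 point for each group in each library and black bars at the medians. All 19 Ly6a points lay above 0, at 0.09 to 0.38, and Kit points lay on both sides of 0.

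The size of the link can be read from cells ordered by the interferon sum. In HSC-like control cells, Ly6a was at 165 CPM in the lowest quartile and 429 CPM in the highest, and in irradiated cells at 359 and 900 CPM. In lymphoid-primed-like cells it went from 109 to 218 CPM in control and from 281 to 525 CPM in irradiated cells. Kit did not move in 1 direction. In HSC-like control cells it was at 243 CPM in the lowest quartile and 224 CPM in the highest, and in irradiated cells at 154 and 142 CPM. It was higher in the highest quartile in megakaryocyte-primed-like control cells (178 and 230 CPM) and in erythroid-primed-like irradiated cells (66.7 and 129 CPM, with medians of 40757 and 17538 UMIs per cell). Over all control cells, where the quartiles also differ in class mix, it was at 104.8 and 165 CPM. Depth moved too, since HSC-like control cells of the lowest quartile had a median of 12530 UMIs and those of the highest 10251, and the part of depth was not tested.

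**Figure D5:**
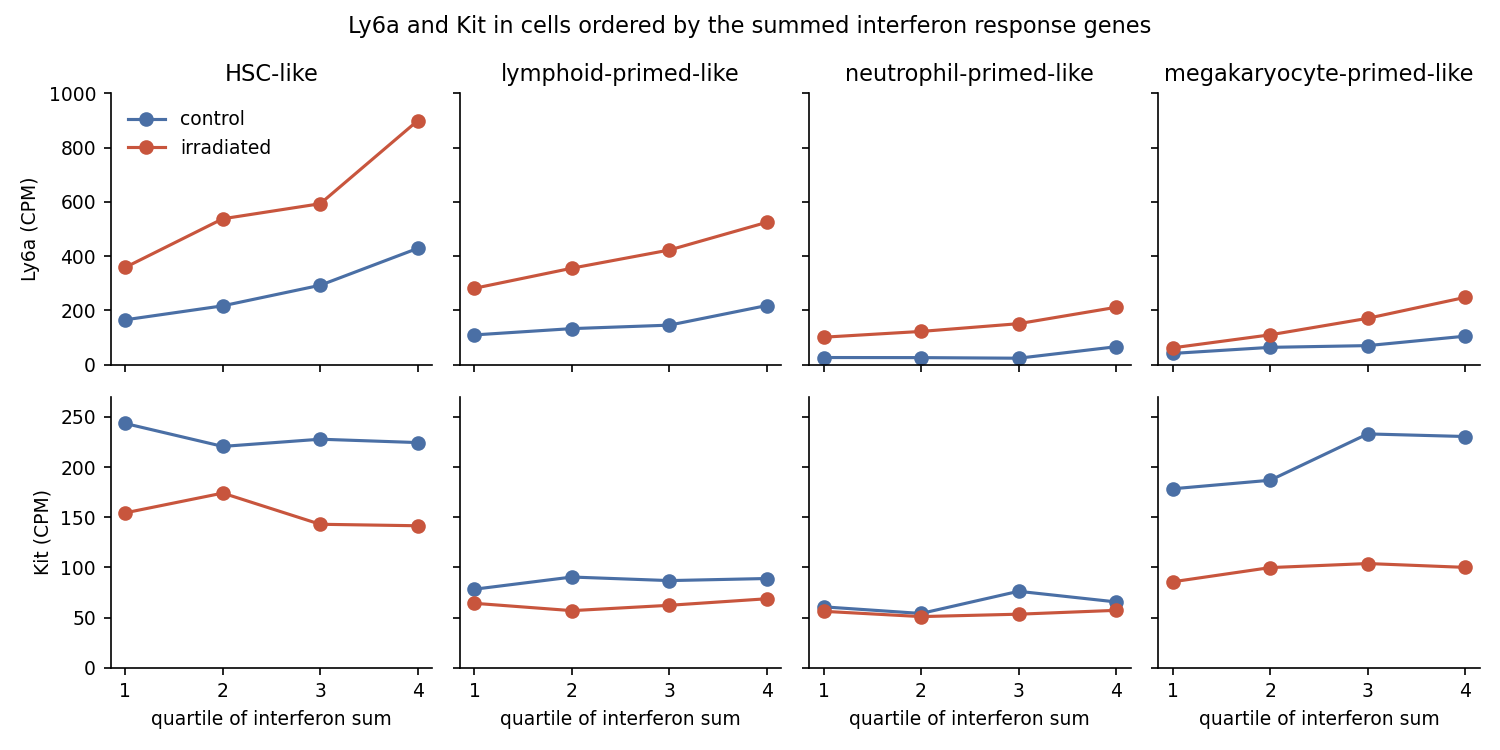
Ly6a (top) and Kit (bottom) in CPM by quartile of the interferon sum, for the 4 named classes with at least 100 cells in each library. In HSC-like cells Ly6a went from 165 to 429 CPM in control and from 359 to 900 CPM in irradiated cells, and Kit was at 243 and 224 CPM in control.

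Cells of the 2 libraries were also set side by side within ranges of the interferon sum that were chosen after seeing the data. Each range spanned 10 UMIs, and the last, 40 or more, had no upper end. The sums within a range could therefore still differ between the libraries, most of all in the last. In lymphoid-primed-like cells with a sum of 20 to 29 UMIs, the mean was 0.92 Ly6a UMIs in 382 control cells and 1.65 in 158 irradiated cells. In HSC-like cells with a sum of 30 to 39, it was 1.45 in 430 control and 2.33 in 64 irradiated cells. In megakaryocyte-primed-like cells with 20 to 29, it was 0.57 in 84 control and 0.86 in 206 irradiated cells. Of the 22 ranges, over 8 groups, that held at least 20 cells of each library, Ly6a was higher in irradiated cells in 22, with a median of 1.85-fold and a range of 1.36 to 6.91. Kit was lower in irradiated cells in 21 of the 22. Over all cells with a sum of 20 to 29 the values were closer, 0.88 and 1.02, where the class mix also differs. The interferon sum itself had a mean of 32.9 UMIs in HSC-like control and 45.6 in HSC-like irradiated cells.

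Among single genes, those most like Ly6a across cells (mean r over the 19 strata) were Ifitm3 (0.17), Ifitm1 (0.12), Shisa5 (0.11), Irf7 (0.11) and the MHC class I gene H2-K1 (0.10). Ifitm3 and Ifitm1 encode membrane proteins that restrict virus entry, and Irf7 is a transcription factor of the interferon response. All 28 interferon response genes counted at 20 CPM or more had a positive mean r with Ly6a, with a median of 0.05, where 47.1% of all 5248 genes were positive. The lowest were Mpo (-0.10) and Ctsg (-0.08), granule genes of the neutrophil path. Over the 21 sums of groups and libraries with at least 50 cells, the genes most like Ly6a were Ifi44 (r = 0.90), Socs3 (0.87), Xaf1 (0.86), Pim1 (0.84) and Mndal (0.84), and the interferon sum had r = 0.87.

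For Kit the values across cells were small: Malat1 (0.14), Gm42418 (0.09), mt-Co1 (0.09), Zfp36l2 (0.08) and Adgrg1 (0.08) led, and 19 of the 28 interferon genes were positive against 57.0% of all genes. Over the 21 sums Kit was most like Adipor2 (r = 0.91), Sugp2, Nfix, Dynlt3 and Dapp1 (each 0.91). Kit and Ly6a had r = 0.08 over these sums. These sums share libraries and depth, and the values are descriptions.

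Over all cells, of 28 interferon response genes, 14 were higher by at least 0.32 on the log2 scale and 2 lower, with a median log2 ratio of 0.22, where 21.1% of all genes were higher, 20.4% lower and the median was 0.02. Isg15, a ubiquitin-like protein, went from 13.1 to 29.5 CPM, log2 1.17, and Irf7 from 20.8 to 44.9 CPM, log2 1.11. Xaf1 had log2 0.69, the 2 lower genes were Ifi203 (-0.41) and Samd9l (-0.37), and Ddx58 had -0.25. The mix of groups bears on these values too. Within the 8 groups compared the log2 ratio of Irf7 lay between 1.42 and 3.35 and that of Isg15 between 1.04 and 2.53. Ifi27l2a ranged from 0.02 in neutrophil-primed-like cells, where the interval held 0, to 2.56 in HSC-like cells. Of 6 interferon-induced GTPases, which act on vacuoles of invading microbes, 4 were higher, led by Igtp (0.74), Irgm1 (0.68) and Ifi47 (0.56). Of 6 interferon receptor and kinase genes, 2 were higher and 3 lower, against 21.1% and 20.4% of all genes. The higher ones were the interferon gamma receptor chains Ifngr1 (73.4 and 100.1 CPM) and Ifngr2 (19.3 and 25.1 CPM). The lower ones were the kinase Jak1 (128 and 75.9 CPM), the type I receptor chain Ifnar1 (23.7 and 17.8 CPM) and Il10rb (39.9 and 31.3 CPM), a chain of the interleukin 10 and interferon lambda receptors. Ifnar2 had log2 -0.24. The 10 interferon ligand genes held at most 8 UMIs in a library (Ifng, control), so their transcripts were hardly seen in these cells. MHC class I had 3 of 15 higher and 4 lower, with Psmb10 at 0.38 and H2-Q6 at -0.67, a share near the background. Of 7 regulators of the response 2 were lower: Irf2, a repressor of interferon genes, at 134 and 65.0 CPM (log2 -1.04), and Pias1 (-0.40).

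Of 30 KIT signalling genes counted, 3 were higher and 9 lower, with a median of -0.05, against the same background of 21.1% and 20.4%. The lower ones included Pik3r1, the regulatory subunit of PI3 kinase (96.3 and 55.0 CPM), and Inpp5d, the phosphatase SHIP1 (78.6 and 48.0 CPM), and the higher ones were Hras, Map2k1 and Fes (log2 0.68, 0.51 and 0.35). Of 7 genes that restrain KIT signalling, 3 were lower, with Pag1 at 44.6 and 21.5 CPM, log2 -1.05, Dok2 at -0.67 and the ubiquitin ligase Cbl at -0.35. Of 10 transcription factors linked to Kit expression, 3 were lower: Lmo2 (-0.48), Fli1 (-0.46) and Runx1 (-0.45). Gata2 had log2 0.20 and Myb 0.06, and neither passed 0.32.

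The relatives of the gate genes did not all share their direction. In the Ly6 cluster, Ly6e was at 588 and 846 CPM (log2 0.53) and Ly6c2 at 30.5 and 195 CPM (log2 2.68), while Ly6d, a marker of lymphoid-directed progenitors, was at 20.9 and 6.00 CPM (log2 -1.80). Ly6e within the 8 groups compared lay on both sides of its value over all cells, from 0.23 in neutrophil-primed-like to 0.65 in lymphoid-primed-like cells. The other 2 did not keep 1 direction within groups. Ly6c2 was lower in neutrophil-primed-like cells (-0.25) and cluster 9 (-0.67). In the rest of the 8 groups it was higher, from 1.12 in cluster 1 to 3.65 in HSC-like cells (8 and 17 UMIs). Ly6d was higher in lymphoid-primed-like cells (7.98 and 16.0 CPM, log2 1.00, interval 0.68 to 1.32) and in cluster 8 (46.8 and 157 CPM, log2 1.75). It was lower in B lineage-like (-0.97), dendritic-like (-5.84) and T and NK lineage-like cells (-3.72), and in cluster 1 (-0.08) the interval held 0. Of the Ly6d UMIs of the control library, 1027 were in B lineage-like and 802 in the 26 dendritic-like cells. Of the class III receptor tyrosine kinases, the family of Kit, Flt3 was at 127 and 46.5 CPM (log2 -1.45) and Pdgfrb at 24.3 and 6.63 CPM (log2 -1.87), and Csf1r was at 8.71 and 12.9 CPM (log2 0.57). The Csf1r direction did not hold within groups: it was lower in 7 of the 8, with intervals below 0 in cluster 1 (-0.24), neutrophil-primed-like cells (-0.47) and cluster 9 (-1.01), and in HSC-like cells the interval held 0. Pdgfrb was lower in each of the 8 groups, from -1.66 to -0.76. Flt3 was lower in each of the 8 groups, from -2.59 in megakaryocyte-primed-like to -0.38 in lymphoid-primed-like cells. Of 6 stem and progenitor surface genes, 3 were lower and 2 higher, against 20.4% and 21.1% of all genes. Cd34 was at 369 and 231 CPM (log2 -0.68), Cd27 at 141 and 82.0 CPM (log2 -0.78) and Eng at 39.1 and 26.8 CPM (log2 -0.55). Cd9 was at 38.7 and 65.1 CPM (log2 0.75) and Cd48 at 166 and 217 CPM (log2 0.39). Within the 8 groups, Cd34 passed -0.32 only in megakaryocyte-primed-like (-1.40) and neutrophil-primed-like cells (-0.47). It was at -0.27 in HSC-like cells, and in cluster 9 (-0.07) the interval held 0. Cd48 lay between -0.06 in neutrophil-primed-like cells, where the interval held 0, and 1.39 in megakaryocyte-primed-like cells.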

How the data were processed

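Single-cell RNA libraries of LSK bone marrow cells, 1 control and 1 irradiated, were analysed from the raw UMI counts deposited by the authors, 1 whole number per gene and barcode. Per the submitters' processing notes, reads were processed with Cell Ranger 2.1.1 against mm10, but version 3.1.0 is written in the matrix headers. Groups were taken from the treatment in the labels. Barcodes with at least 1000 UMIs, 500 genes and at most 10% mitochondrial UMIs were kept, which removed 496 of 7686 control and 468 of 5596 irradiated barcodes. Scrublet (expected rate 0.06) marked 2 and 16 cells, far below that rate, so doublet removal has not worked. Kept cells held 138080503 and 162748209 UMIs.

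Cells were clustered with scanpy 1.11.5 (2000 variable genes, 30 components, 15 neighbours from each library, Leiden resolution 1). A cluster took a name when at least 3 markers of a list were among its 25 leading genes by fold and no other list had more among the top 10. Genes averaging 20 CPM or more were listed, called at a ratio of 2, and list members counted at a log2 ratio of 0.32. Genes were named by rule: both gate genes everywhere, members of short lists at 5 CPM or more, up to 3 highest and 3 lowest of longer lists, and the 5 genes most like each gate gene. Of 427 genes on 30 lists, 422 were in the files. The gate genes and lists were chosen with earlier results of these data known. With 1 library per group no test was made and no p-value is given. The ratio and correlation code was tested on simulated data. Of the 2 gate genes, 1 was in the RefSeq promoter table. Some genes of the lists are not reported here.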

Additional observations from a re-analysis of the deposited data

Results flagged for a closer look

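Kit stood in the opposite direction in dendritic-like cells, where it was higher in the irradiated library with a log2 ratio of 1.04 (interval 0.23 to 1.96), from 38.95 CPM in 26 control cells (14 UMIs) to 80.0 CPM in 76 irradiated cells (107 UMIs). In 9 other groups the interval of the Kit ratio lay below 0. The difference between the groups was not tested. In the same cells 8.87% of genes were at least 2-fold higher, and 21.3% differed at least 2-fold either way. Ly6d went from 2231 to 38.9 CPM there, and whether the class held like cells in both libraries was not tested.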

How the results depend on the processing

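No paired analysis was possible because each group was 1 library, so no replicate could be left out or paired. No ratio or share of either gene changed direction under any alternative run. The link of Kit to interferon genes, a median r of 0.014 over named classes, changed sign: it was -0.038 in G1 cells, -0.0093 without the highest doublet scores (an alternative added after seeing the data) and at most 0.065 elsewhere. Over all cells, the log2 ratio of Ly6a (0.48) was 0.60 with a mitochondrial limit of 5%, 0.44 with each cell weighted equally and 1.24 at the control class mix, and that of Kit (-0.85) was -0.77, -0.80 and -0.58. The Ly6a share of cells with a UMI, higher by 5.84 points, was higher by 8.67 points with the 5% limit. The Kit share differed by -15.9 points, and by -11.3 with thinning to 2500 UMIs, -2.27 with no thinning and -9.97 with at least 2 UMIs. The median log2 ratio over named classes was 1.252 for Ly6a, and 1.47 with all barcodes, 1.47 with 30 neighbours from all cells and 1.02 with cells named by their own markers. For Kit it was -0.50, and -0.81 with all barcodes and -0.87 by own markers. These medians do not all cover the same classes. No cluster took the HSC name with all barcodes or with 30 neighbours from all cells. The latter also had a monocyte-primed and no neutrophil-primed cluster. The median link of Ly6a to interferon genes over named classes (r = 0.23) was 0.37 with no thinning, where 9 of 10 strata were positive and the lowest r was -0.086, and 0.33 in G1 cells (3 strata). Without Ifitm1, Ifitm2, Ifitm3 and Ly6e it was 0.18, with 9 of 10 strata positive. Genes past 2-fold numbered 183, and 560 from a mean of 5 CPM. Unnamed clusters could not be matched between clusterings, so reclustering alternatives cover named classes only. Depth limits the shares: a cell without a UMI may hold the RNA.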
